A study of Mus musculus with 2 samples.

Results

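The hypoxia-inducible factor (HIF) subunits and oxygen sensors are 10 genes, and their transcripts were measured by single-nucleus RNA sequencing in the colon of mice with chronic colitis. They were found by their exact symbols among the 32285 genes of the deposited counts, and each of the 10 symbols occurred once. The members are the alpha subunits Hif1a, Epas1 (encoding HIF-2α) and Hif3a, the beta subunits Arnt and Arnt2, the prolyl hydroxylases Egln1, Egln2 and Egln3, the ubiquitin ligase subunit Vhl and the asparaginyl hydroxylase Hif1an (also called FIH).

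The study compared WT colon with colon of Ncr1cre+ Hif-1α fl+/fl+ mice, termed HIF-1a KO, in which Cre is driven by the promoter of Ncr1, the gene of the receptor NKp46, and so is active in NKp46+ innate lymphoid cells, NK cells included. WT animals were littermates, aged like the HIF-1a KO animals 8 to 12 weeks, and the mice of both groups had 4 cycles of 2% dextran sodium sulfate (DSS) in drinking water for 3 d, each followed by 4 d of recovery, to day 28. Snap-frozen colon of 3 animals was pooled into 1 library per genotype, so that no difference between the libraries has a replicate check and no p-value is given. The counts held 4884 WT nuclei with 13259430 UMIs and 4702 HIF-1a KO nuclei with 23605502 UMIs after the filter on quality, with medians of 2058.5 and 4197 UMIs per nucleus, and 3 barcodes occurred in both libraries.

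In cells with enough oxygen, the Egln enzymes hydroxylate prolines of the alpha subunits, Vhl then recruits a ubiquitin ligase and the alpha subunit is degraded. With enough oxygen, Hif1an also hydroxylates an asparagine of the alpha subunit and thereby blocks the contact with coactivators. In low oxygen, the alpha subunit is kept, pairs with an Arnt protein and binds hypoxia response elements. Egln3 and Egln1 are themselves known targets of HIF, and the colon epithelium is known for a steep fall of oxygen toward the lumen, where absorptive cells rely on HIF for barrier function. Because much of this control acts on the protein, the transcript levels given here do not measure HIF activity.

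The hypoxia response element has a core of 5 bases, written here as ACGTG or GCGTG. The core was searched for on both strands of the promoter windows of RefSeq (GRCm38.p6), which span 250 bases before to 50 bases after a start that RefSeq gives for the gene. A window was found for 9 members, with 10 windows in all. Of these, 7 (70.0%) held the core, beside 43.8% of all 32851 windows, and the 7 belonged to 6 members. The windows of the 3 members that were higher in the HIF-1a KO library over all nuclei and had a window (see the ratios of the libraries further on) are shown 5′ to 3′ on the strand of the gene, with each core in capitals. A match describes the letters of the window and not a bound site.
Egln3, chr12:54203825-54204124, minus strand: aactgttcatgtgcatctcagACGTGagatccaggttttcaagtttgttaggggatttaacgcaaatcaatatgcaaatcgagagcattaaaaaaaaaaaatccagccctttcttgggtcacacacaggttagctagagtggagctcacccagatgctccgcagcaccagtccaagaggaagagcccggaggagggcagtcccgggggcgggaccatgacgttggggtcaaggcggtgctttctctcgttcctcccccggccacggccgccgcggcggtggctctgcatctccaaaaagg
Egln1, chr8:124949205-124949504, minus strand: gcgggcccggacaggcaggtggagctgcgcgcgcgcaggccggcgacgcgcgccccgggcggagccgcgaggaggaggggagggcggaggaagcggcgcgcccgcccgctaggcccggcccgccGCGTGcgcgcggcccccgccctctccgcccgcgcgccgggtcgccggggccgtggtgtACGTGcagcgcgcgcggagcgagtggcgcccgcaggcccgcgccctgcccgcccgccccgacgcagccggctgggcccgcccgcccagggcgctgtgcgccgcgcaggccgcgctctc
Hif1a, chr12:73907617-73907916, plus strand: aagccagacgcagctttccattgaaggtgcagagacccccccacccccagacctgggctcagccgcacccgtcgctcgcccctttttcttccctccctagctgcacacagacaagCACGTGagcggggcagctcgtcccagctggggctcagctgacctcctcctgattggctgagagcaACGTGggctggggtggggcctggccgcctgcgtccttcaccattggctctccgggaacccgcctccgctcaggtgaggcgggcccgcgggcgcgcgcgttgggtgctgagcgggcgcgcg
The Egln3 window held 1 core and that of Egln1 held 2, all on the strand of the gene. The window of Hif1a held 3, of which 1 lay on the other strand and overlapped with a core of the first strand in the run CACGTG. Among the other members, the 2 windows of Egln2 held 6 and 1 cores, that of Hif3a held 2 and that of Arnt held 1. The windows of Vhl, Arnt2 and Hif1an held none. Cores thus also lay in windows of members that were not higher in HIF-1a KO. The Hif1a window belongs to a RefSeq start that lies inside the span given for the gene below, which begins at the outermost start of the GENCODE annotation.

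Nuclei were grouped into 25 clusters, with the 10 members and the listed pathway genes kept out of the features that defined them, and 21 clusters were named from marker genes into 14 classes. Each name means that the nuclei are like the named cell type by these markers. The unnamed clusters 1 and 2 held 14.3% and 10.3% of the WT nuclei, and 3.30% and 6.64% of the HIF-1a KO nuclei. Cluster 1 had medians of 1406 and 1690 UMIs per nucleus in WT and HIF-1a KO. Unnamed nuclei belong to no class, but count in the values over all nuclei and of all other nuclei. The markers of a class had their highest sum in that class in both libraries for 13 of the 14 classes, and the exception was the Cftr and Htr4 crypt enterocyte-like class, whose markers were higher in the crypt base stem-like class in the HIF-1a KO library. Classes with at least 20 nuclei in each library are described, which gave 13, and 10 of them had at least 50. The blood endothelial-like class (79 WT and 33 HIF-1a KO nuclei), the lymphatic endothelial-like class (79 and 41) and the enteric neuron-like class (27 and 22) were below 50. Levels are UMIs of a gene per 1000000 UMIs of the class (CPM), followed by the exact 95% Poisson interval, which covers counting error only and no difference between animals.

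Transcripts of the cells in which Hif1a was deleted could not be followed. Ncr1 was found in 1 of 4884 WT nuclei, which lay outside the immune-like class, and in 0 of 4702 HIF-1a KO nuclei, which allows a share of nuclei with an Ncr1 UMI of up to 0.0638% and sets no limit on the share of NKp46+ cells, since a rare transcript can be missed. Hif1a over all nuclei was at 172 CPM (165–179) in WT and 199 CPM (193–205) in HIF-1a KO. In the T-like cluster, Hif1a had 7 UMIs in the WT library, or 236 CPM (95–487), and 34 UMIs in the HIF-1a KO library, or 290 CPM (201–405). The Hif1a count therefore gives no check of the genotype, and the values that follow describe the tissue around the NKp46+ cells.

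Hif1a encodes the alpha subunit that answers acute hypoxia in most cells, and lies on chromosome 12 (73901375–73947530, plus strand) of GRCm38. It was found in every class, and the surface absorptive-like enterocytes, which line the lumen, had the highest value in both libraries. There it was at 303 CPM (279–329) in WT and 310 CPM (295–325) in HIF-1a KO, against 151 and 168 CPM in all other nuclei of the same library. The log2 ratio of these levels was 1.01 (0.87 to 1.15) and 0.89 (0.80 to 0.97). Blood endothelial-like nuclei followed in WT with 280 CPM (209–369), and lymphatic endothelial-like nuclei in HIF-1a KO with 294 CPM (207–405), and neither was separated from the surface cells.

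Along the epithelium Hif1a was lower away from the surface. The Gsdmc enterocyte-like class, named for its gasdermin C genes, had 184 CPM (166–203) in WT and 209 CPM (196–222) in HIF-1a KO. The Cftr and Htr4 crypt enterocyte-like class had 132 CPM (106–162) and 172 CPM (153–193). In the cycling crypt-like class the values were 107 CPM (91.9–124) and 133 CPM (117–150), and in the crypt base stem-like class 110 CPM (85.0–140) and 120 CPM (99.0–144). In both libraries the intervals of the surface and of the Gsdmc classes were separated from each other, and both lay above those of the cycling and the stem-like classes.

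In the goblet-like class, the mucus-secreting cells, Hif1a was at 127 CPM (111–144) in WT and 140 CPM (130–151) in HIF-1a KO. Enteroendocrine-like nuclei had 111 CPM (82.9–146) and 131 CPM (107–159). Outside the epithelium, immune-like nuclei were at 204 CPM (155–265) and 218 CPM (182–260), and fibroblast-like nuclei at 175 CPM (142–214) and 185 CPM (144–235). Smooth muscle-like nuclei had 141 CPM (114–173) and 178 CPM (142–221), and enteric neuron-like nuclei had the lowest value of the 13 classes in both libraries, 59.7 CPM (27.3–113) and 96.7 CPM (58.2–151). In the order of the 13 classes, no neighbours were separated in WT, and in HIF-1a KO the one separated pair was the Cftr and Htr4 crypt enterocyte-like class above the next, the goblet-like class.

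Hif1a also differed between the 2 clusters of surface absorptive-like nuclei. Cluster 15, led by the acute-phase gene Saa1 and holding the oxidase maturation factor Duoxa2 among its leading genes, had 398 CPM (337–467) in WT and 430 CPM (390–472) in HIF-1a KO. Cluster 0, led by the sodium-proton exchanger Slc9a3, had 280 CPM (253–308) and 280 CPM (265–297). The intervals of the 2 clusters did not overlap in either library. The clusters of the Gsdmc class differed likewise, with 152 CPM (130–175) and 180 CPM (165–197) in cluster 3 and 228 CPM (197–261) and 245 CPM (224–267) in cluster 7.

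**Figure D1:**
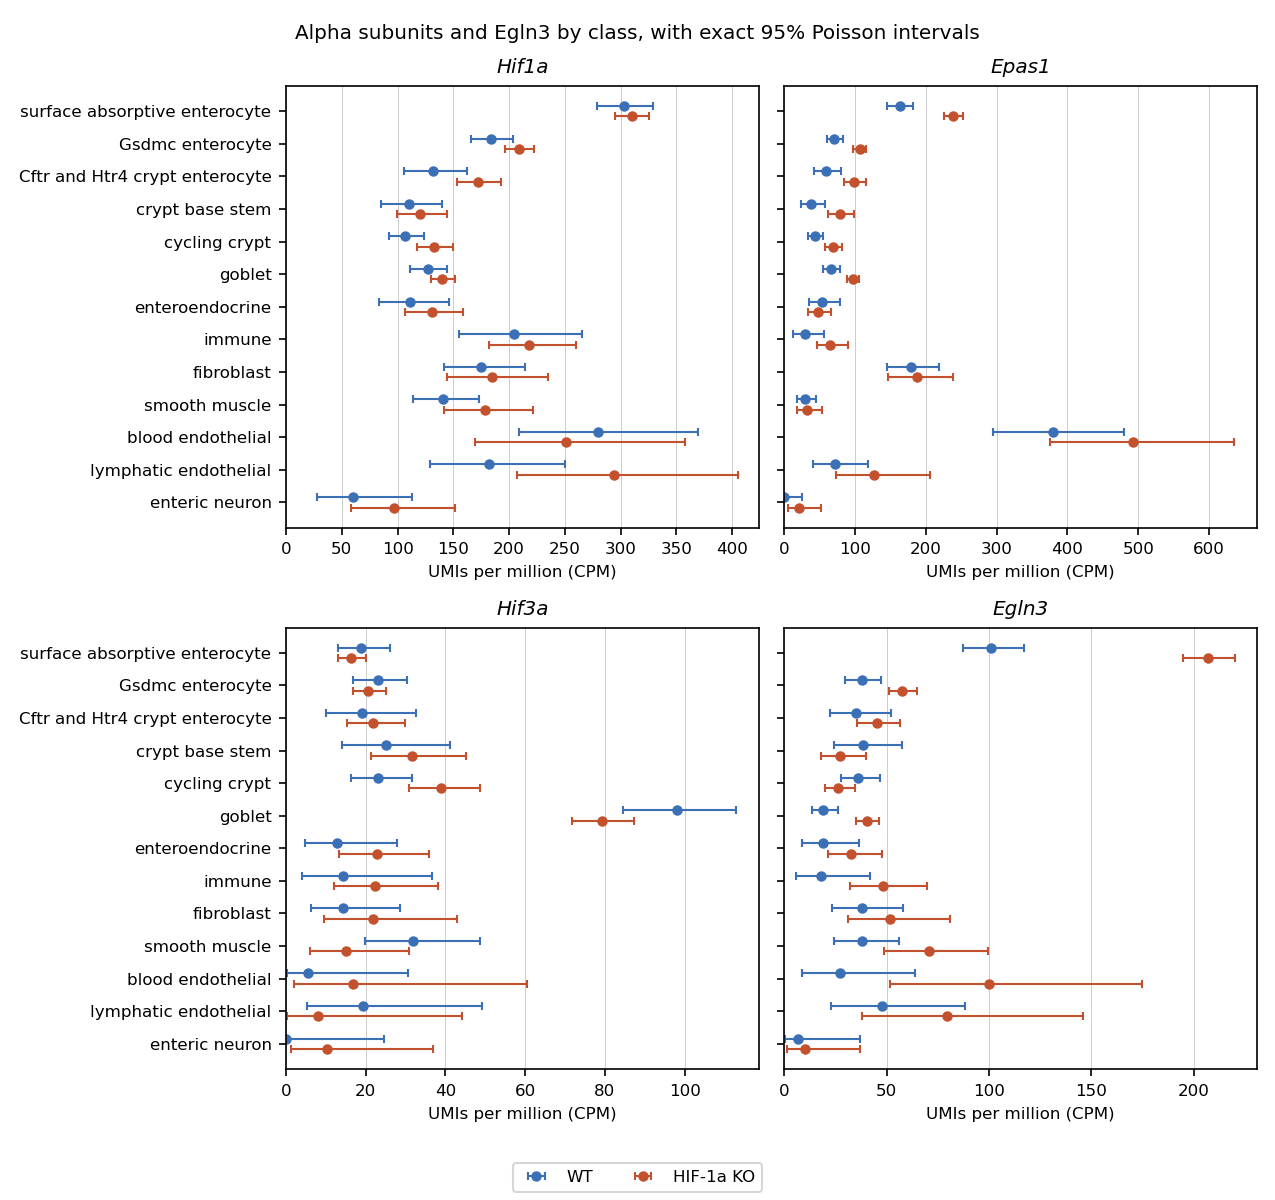
Levels of the alpha subunits and Egln3 in CPM (x axis, linear, each panel with its own range) in the 13 classes (y axis), with points for the WT and the HIF-1a KO library and bars for exact 95% Poisson intervals. Hif1a and Egln3 were highest in surface absorptive-like nuclei, Epas1 in blood endothelial-like nuclei at 379 and 493 CPM, and Hif3a in goblet-like nuclei at 98.2 and 79.3 CPM.

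Epas1 encodes HIF-2α, which is known for its role in endothelium and in the control of iron uptake, and lies on chromosome 17 (86753700–86833410, plus strand). Its highest class was the blood endothelial-like class, with 379 CPM (295–480) in WT from 69 UMIs and 493 CPM (375–636) in HIF-1a KO from 59 UMIs. This class stood apart from the next in both libraries, and the log2 ratio over all other nuclei was 2.32 (1.95 to 2.68) and 1.98 (1.58 to 2.35). Lymphatic endothelial-like nuclei were lower, at 71.9 CPM (40.2–119) and 127 CPM (72.6–206), with intervals separated from those of the blood endothelial-like class.

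Fibroblast-like and surface absorptive-like nuclei came next and were not separated from each other. Fibroblast-like nuclei had 179 CPM (145–218) in WT and 188 CPM (146–238) in HIF-1a KO. Surface absorptive-like nuclei had 163 CPM (145–182) and 239 CPM (226–253). The remaining epithelium lay between 38.3 CPM (24.3–57.5) in the crypt base stem-like class and 70.8 CPM (59.9–83.2) in the Gsdmc class in WT, and between 47.9 CPM (33.9–65.7) in enteroendocrine-like nuclei and 107 CPM (97.5–116) in the Gsdmc class in HIF-1a KO. Smooth muscle-like nuclei, which are also mesenchymal, had 28.8 CPM (17.4–45.0) and 32.2 CPM (18–53.1), below the fibroblast-like nuclei in both libraries. Immune-like nuclei had 28.7 CPM (12.4–56.5) and 65.4 CPM (46.3–89.7). Among the enteric neuron-like nuclei Epas1 had 0 UMIs in WT and 4 in HIF-1a KO.

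Hif3a encodes an alpha subunit with splice forms that are known to restrain the other HIF proteins, and lies on chromosome 7 (17031507–17062427, minus strand). Its pattern was unlike that of the other alpha subunits, since goblet-like nuclei were the one class that stood apart, at 98.2 CPM (84.5–113) in WT and 79.3 CPM (71.7–87.4) in HIF-1a KO. All other nuclei had 21 and 21.8 CPM, a log2 ratio of 2.22 (1.94 to 2.51) and 1.86 (1.66 to 2.07). Surface absorptive-like nuclei, where Hif1a was highest, had 18.7 CPM (13–26.0) and 16.3 CPM (13–20.1).

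Within the goblet-like class, cluster 4, with the goblet factor Spdef among its leading genes, had 116 CPM (93.5–141) in WT and 116 CPM (102–132) in HIF-1a KO. Cluster 9, led by the mucus-processing gene Clca1, had 83.4 CPM (64.1–107) and 41.6 CPM (33.0–51.8), and these intervals did not overlap. Cluster 12, led by St6gal1 and Scin, had 88.1 CPM (58.1–128) and 77.7 CPM (62.2–95.8). The 8 summed goblet markers went the other way between clusters 4 and 9, with 5785 and 5688 CPM in cluster 4 and 27994 and 23117 CPM in cluster 9.

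The cycling nuclei split by Hif3a as well. Cluster 17 had 69.3 CPM (40.4–111) in WT and 115 CPM (85.2–151) in HIF-1a KO, whereas cluster 6, which shares the mitotic genes Knl1 and Top2a among its leading genes, had 14.9 CPM (9.24–22.8) and 17.5 CPM (11.6–25.5). The goblet markers summed to 3805 and 2685 CPM in cluster 17 and to 912 and 1253 CPM in cluster 6. The cycling cluster with more goblet transcripts was thus that with more Hif3a, and cluster 17 was small, with 59 and 60 nuclei. Its median was 3510 UMIs per nucleus in WT and 7646.5 in HIF-1a KO, against 2961.5 and 5100 in cluster 6. No doublets, which are barcodes with more than 1 nucleus, were removed, and their part in cluster 17 was not tested. In all 12 classes other than the goblet-like one, the goblet markers summed to 803 to 1687 CPM in WT and 951 to 3151 CPM in HIF-1a KO, and their part in the Hif3a levels was not tested. Over the whole cycling crypt-like class Hif3a had 23.0 CPM (16.3–31.6) and 39.0 CPM (30.8–48.7).

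**Figure D2:**
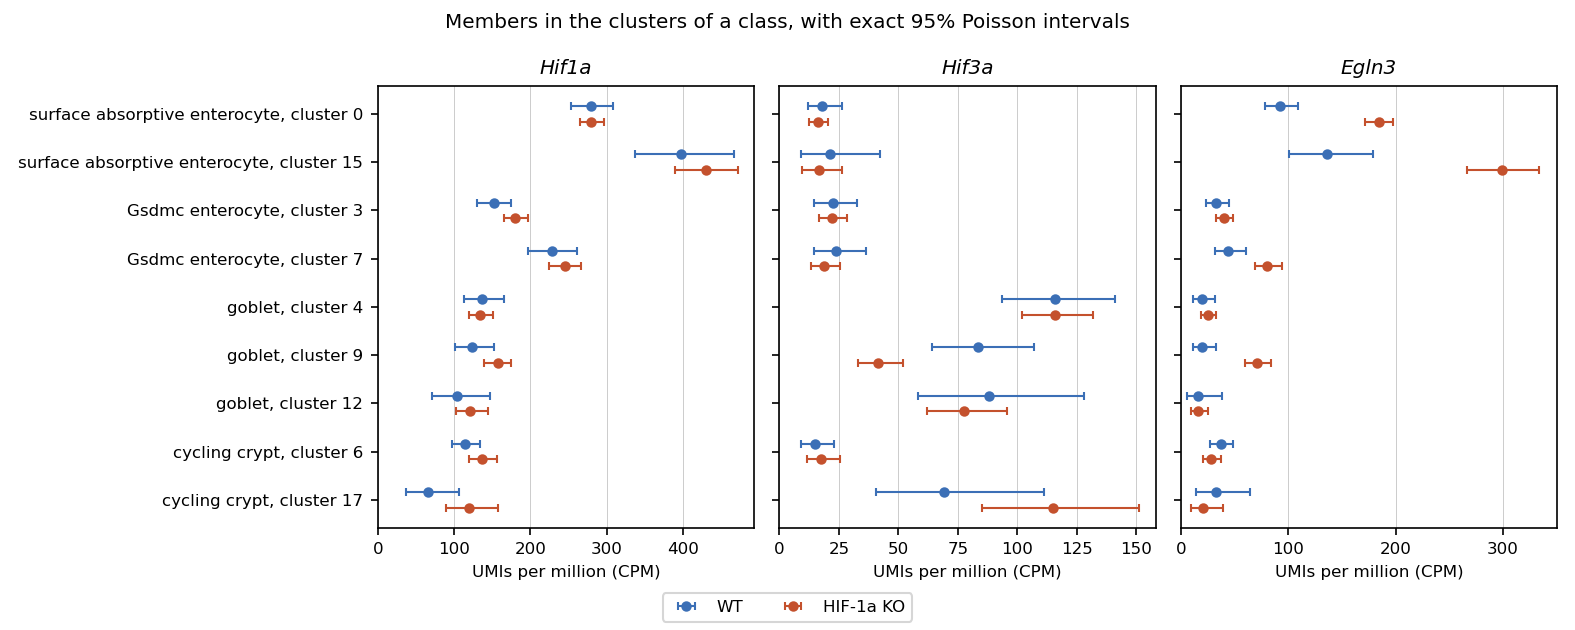
Levels of Hif1a, Hif3a and Egln3 in CPM (x axis, linear, each panel with its own range) in single clusters of the surface absorptive-like, Gsdmc, goblet-like and cycling crypt-like classes (y axis), with points for the WT and HIF-1a KO libraries and bars for exact 95% Poisson intervals. Cycling cluster 17 reached 69.3 and 115 CPM of Hif3a, whereas cycling cluster 6 had 14.9 and 17.5 CPM.

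Among the beta subunits, Arnt, the common partner of the alpha subunits, lies on chromosome 3 (95434388–95497240, plus strand). It ranged from 66.4 CPM (31.8–122) in enteric neuron-like to 216 CPM (157–289) in lymphatic endothelial-like nuclei in WT, and from 91.6 CPM (54.3–145) in enteric neuron-like to 176 CPM (109–268) in blood endothelial-like nuclei in HIF-1a KO. Surface absorptive-like nuclei had 113 CPM (98.4–129) and 98.4 CPM (90.1–107) of Arnt, although their Hif1a was the highest.

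Arnt2, a homolog known mainly from neurons, lies on chromosome 7 (84246278–84410176, minus strand) and was rare, since the WT library held 20 of its UMIs and the HIF-1a KO library 33. Its highest class was the enteric neuron-like class, with 26.5 CPM (7.23–68.0) from 4 UMIs and 50.9 CPM (24.4–93.6) from 10 UMIs. Immune-like nuclei followed with 10.8 CPM (2.22–31.4) and 13.8 CPM (5.94–27.1). Of the immune-like UMIs, 2 of 3 in WT and 8 of 8 in HIF-1a KO lay in the T-like cluster, at 67.5 CPM (8.18–244) and 68.2 CPM (29.4–134). They came from 15.4% of the 13 and 5.26% of the 57 nuclei of that cluster, and the UMIs of the enteric neuron-like class from 11.1% of 27 and 22.7% of 22 nuclei, so that a few nuclei carried these values and the intervals do not cover the spread between nuclei. Goblet-like nuclei had 0 and 1 UMIs of Arnt2 in 597 and 964 nuclei.

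Of the prolyl hydroxylases, Egln3 (also called PHD3) lies on chromosome 12 (54178981–54203860, minus strand) and was highest in surface absorptive-like nuclei, at 101 CPM (87.5–117) in WT and 207 CPM (195–220) in HIF-1a KO. The log2 ratio over all other nuclei was 1.65 (1.39 to 1.91) and 2.21 (2.08 to 2.34), and the class was separated from the next in HIF-1a KO but not in WT. The Gsdmc class, also enterocytes, had 37.8 CPM (29.9–47.1) and 57.8 CPM (51.2–65.0). Crypt base stem-like nuclei had 38.3 CPM (24.3–57.5) and 27.4 CPM (17.9–40.1), and cycling crypt-like nuclei 36.3 CPM (27.7–46.7) and 26.3 CPM (19.7–34.5).

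Goblet-like nuclei had 19.1 CPM (13.4–26.4) in WT and 40.5 CPM (35.2–46.5) in HIF-1a KO of Egln3. Cluster 9 had 19.8 CPM (11.1–32.7) and 70.8 CPM (59.4–83.8), while cluster 4 had 19.5 CPM (11.1–31.6) and 25.3 CPM (18.8–33.2) and cluster 12 16.3 CPM (5.30–38.1) and 16.1 CPM (9.52–25.4). Cluster 9 is also the goblet cluster in which Hif3a was lower in the HIF-1a KO library. Surface cluster 15, with the most Hif1a, had 136 CPM (101–179) and 299 CPM (267–334) of Egln3, and surface cluster 0 had 92.7 CPM (78.0–109) and 185 CPM (172–198). These clusters overlapped in WT and did not in HIF-1a KO.

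Egln1 (PHD2), the main oxygen sensor in most cells, lies on chromosome 8 (124908587–124949324, minus strand) and was more even over the tissue. It ranged from 27.1 CPM (15.2–44.7) in fibroblast-like to 60.5 CPM (30.2–108) in blood endothelial-like nuclei in WT, and from 24.5 CPM (11.2–46.6) to 83.6 CPM (40.1–154) in the same classes in HIF-1a KO. Surface absorptive-like nuclei had 44.3 CPM (35.3–54.9) and 54.2 CPM (48.0–60.9). Egln2 (PHD1), on chromosome 7 (27158658–27166802, minus strand), lay between 0 UMIs in enteric neuron-like and 25.1 CPM (10.1–51.7) in immune-like nuclei in WT, and between 3.78 CPM (0.780–11) in enteroendocrine-like and 31.7 CPM (8.65–81.3) in lymphatic endothelial-like nuclei in HIF-1a KO.

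Vhl, on chromosome 6 (113623959–113631633, plus strand), was found with only 154 and 220 UMIs, or 11.6 CPM (9.85–13.6) in WT and 9.32 CPM (8.13–10.6) in HIF-1a KO. Its highest value was 16.2 CPM (7.43–30.8) in fibroblast-like nuclei in WT and 20.6 CPM (10.7–36.1) in immune-like nuclei in HIF-1a KO. At this depth no neighbours in the order of the classes were separated for Vhl, Egln1, Egln2 or Hif1an. Hif1an, on chromosome 19 (44562850–44576274, plus strand), ranged from 15 CPM (6.01–30.8) in enteroendocrine-like to 44.0 CPM (19.0–86.6) in blood endothelial-like nuclei in WT, and from 15 CPM (6.04–30.9) in smooth muscle-like to 30.5 CPM (11.2–66.4) in enteric neuron-like nuclei in HIF-1a KO.

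**Figure D3:**
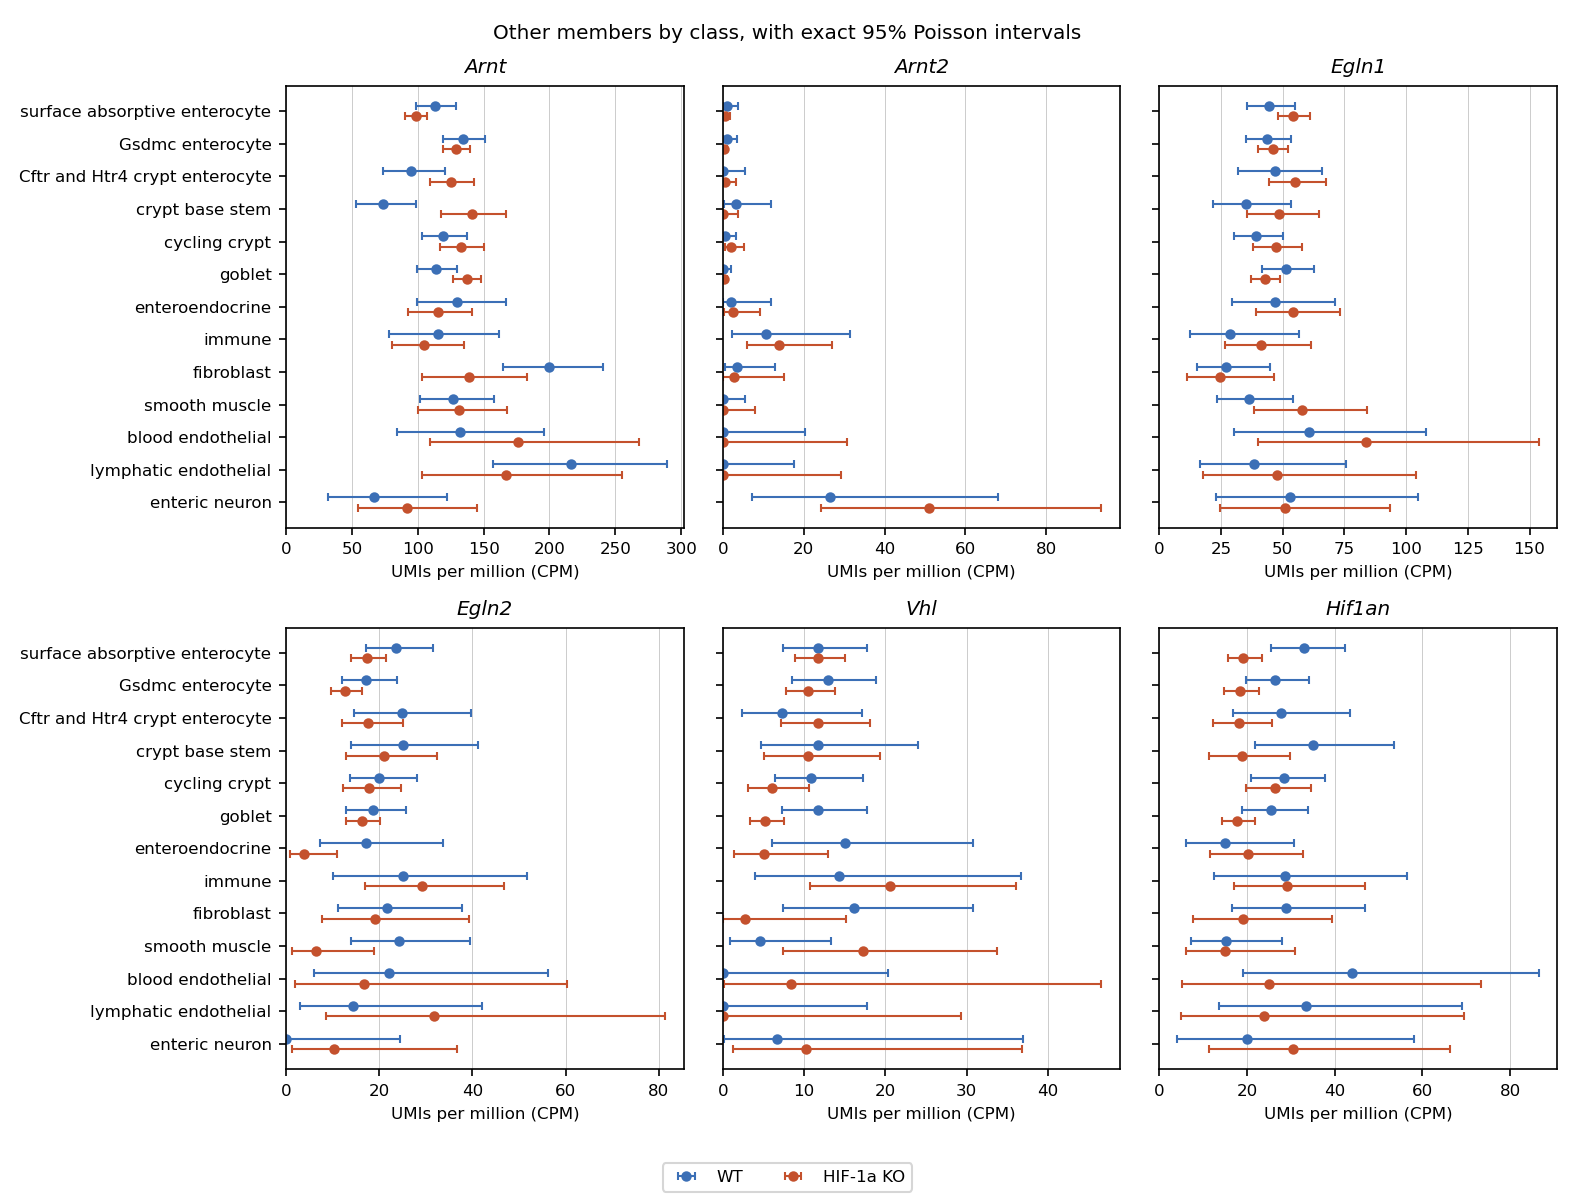
Levels of Arnt, Arnt2, Egln1, Egln2, Vhl and Hif1an in CPM (x axis, linear, each panel with its own range) in the 13 classes (y axis), with points for the WT and HIF-1a KO libraries and bars for exact 95% Poisson intervals. Arnt2 reached 26.5 and 50.9 CPM in enteric neuron-like nuclei, and the intervals of Egln1, Egln2, Vhl and Hif1an overlap between neighbouring classes.

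Levels of different genes depend on how well each is captured, so the balance of the families was compared between classes as the percent of the family's UMIs, with exact 95% binomial intervals. Epas1 made up 57.0% (47.7–66.0) and 64.8% (54.1–74.6) of the UMIs of the 3 alpha subunits in blood endothelial-like nuclei of WT and HIF-1a KO. The shares were 48.5% (41.5–55.6) and 47.6% (39.2–56.0) in fibroblast-like nuclei, 14.3% (8.83–21.4) and 14.3% (8.22–22.5) in smooth muscle-like nuclei and 11.6% (5.14–21.6) and 21.3% (15.6–28.1) in immune-like nuclei. The alpha subunit transcripts thus held more Epas1 in blood endothelial-like and fibroblast-like than in immune-like and smooth muscle-like nuclei, in both libraries. Hif3a made up 33.8% (29.8–37.9) and 25.1% (23.0–27.3) in goblet-like nuclei, against 3.85% (2.70–5.32) and 2.88% (2.31–3.55) in surface absorptive-like nuclei.

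In the Egln family, Egln3 made up 59.9% (54.3–65.4) and 74.3% (72–76.6) of the UMIs of surface absorptive-like nuclei in WT and HIF-1a KO. In goblet-like nuclei the share was 21.4% (15.5–28.4) and 40.8% (36.4–45.2), and in cycling crypt-like nuclei 38.0% (30.4–46.0) and 28.9% (22.4–36.1). The surface share was separated from both of these in either library.

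**Figure D4:**
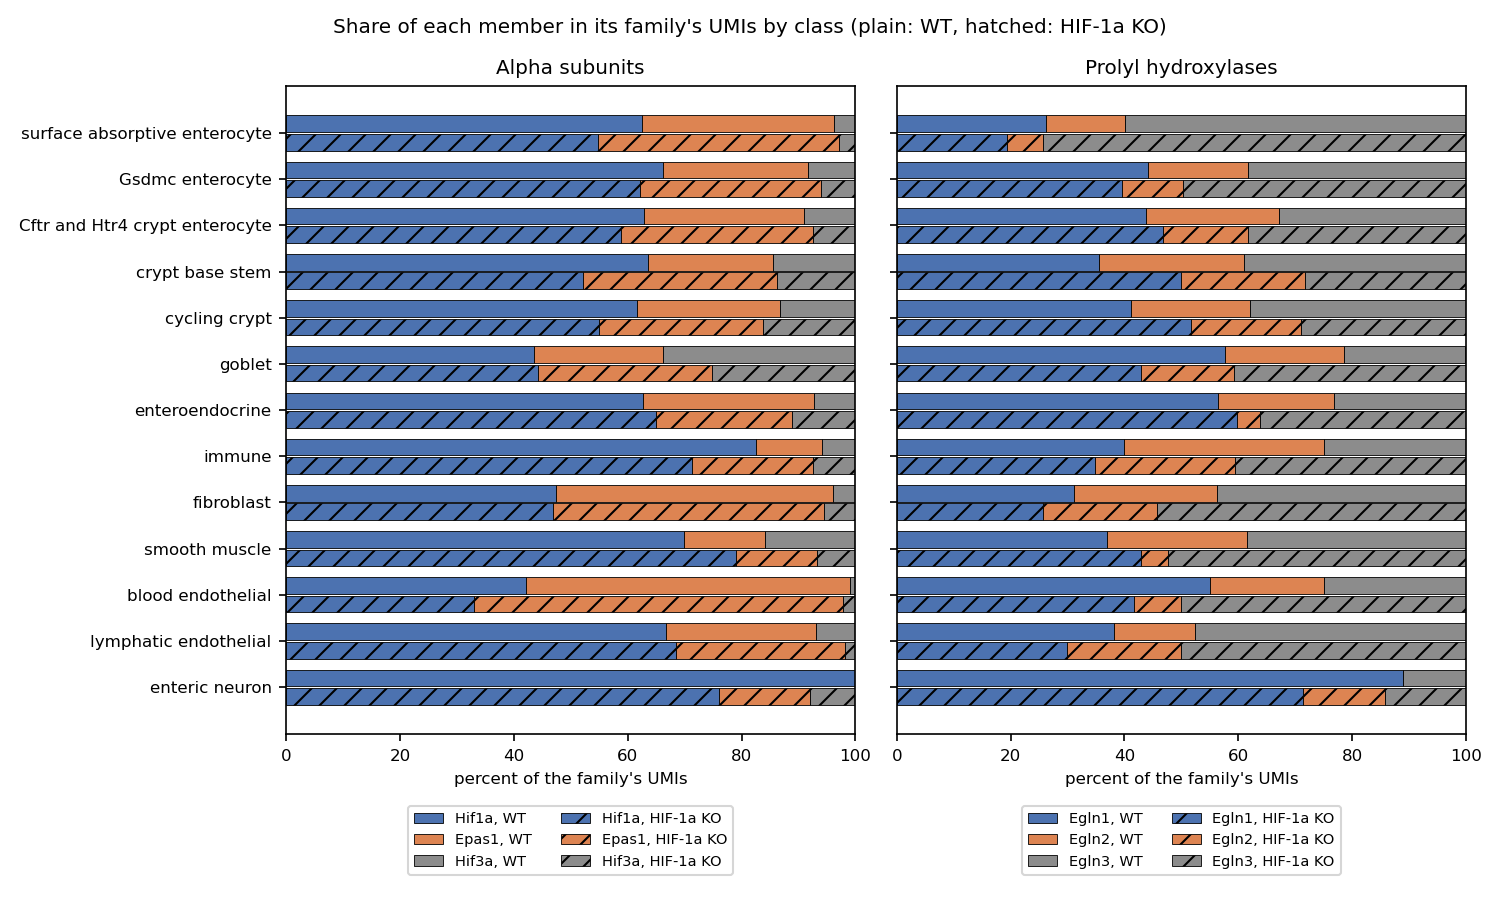
Percent of the UMIs of the alpha subunits (Hif1a, Epas1 and Hif3a) and of the prolyl hydroxylases (Egln1, Egln2 and Egln3) by class, as stacked bars from 0 to 100, plain for the WT and hatched for the HIF-1a KO library. Epas1 takes 57.0% and 64.8% in blood endothelial-like nuclei, Hif3a 33.8% and 25.1% in goblet-like nuclei, and Egln3 59.9% and 74.3% in surface absorptive-like nuclei.

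The second comparison was between the libraries. The word called is used of a gene with at least 50 UMIs in both libraries together whose Poisson intervals in WT and HIF-1a KO had no overlap. Over all nuclei 10 members could be compared, of which 4 were higher in HIF-1a KO, 1 was lower and 5 were not called, while 53.0% of all 14393 genes compared were called in either direction. The share of members called was thus near that of all genes, and the median log2 ratio of the members was 0.07 beside -0.01 for all genes.

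Egln3 had the largest ratio of the members, with 42 CPM (38.6–45.6) in WT and 80.8 CPM (77.2–84.5) in HIF-1a KO, a log2 ratio of 0.94 (0.81 to 1.08). Epas1 followed with 79.9 CPM (75.1–84.8) and 127 CPM (123–132), or 0.67 (0.57 to 0.77). Egln1, with 41.6 CPM (38.2–45.2) and 48.6 CPM (45.9–51.5), differed by 0.23 (0.08 to 0.38), and Hif1a, with the levels given above, by 0.21 (0.14 to 0.28). Hif1an was the lower member, with 27.8 CPM (25.1–30.8) and 19.9 CPM (18.2–21.8), or -0.48 (-0.68 to -0.28).

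The other 5 members were not called over all nuclei. Egln2 had 19.8 CPM (17.4–22.3) in WT and 15.9 CPM (14.4–17.6) in HIF-1a KO, a log2 ratio of -0.31 (-0.54 to -0.08), and Vhl had a ratio of -0.32 (-0.62 to -0.01). Arnt had 120 CPM (114–126) and 123 CPM (118–127), with 0.04 (-0.05 to 0.13). Hif3a had 32 CPM (29.0–35.2) and 34.1 CPM (31.8–36.5), with 0.09 (-0.08 to 0.27), and Arnt2 had a ratio of -0.11 (-0.95 to 0.77).

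These ratios mix levels within classes with the makeup of the libraries, and surface absorptive-like nuclei were 8.46% of the WT and 15.4% of the HIF-1a KO nuclei. With the cluster shares held at those of WT, the log2 ratio of Egln3 was 0.71, that of Epas1 0.56, that of Hif1a 0.16 and that of Hif1an -0.43. Without the surface absorptive-like nuclei, Egln3 had 0.48 (0.30 to 0.66) and Epas1 0.53 (0.40 to 0.65), and both were still called, as were Hif1a and Hif1an, whereas Egln1 was not, with 0.20 (0.03 to 0.36). Without the unnamed clusters Egln1 was also not called, with 0.17 (0.01 to 0.33), and Egln2 was, with -0.35 (-0.60 to -0.11). All 3 of these alternatives were added with the data in view.

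By class, 62 of the 130 pairs of a member and a class had enough UMIs, and 10 were higher and 1 lower in HIF-1a KO. In the surface absorptive-like class 9 members were compared, of which Epas1 and Egln3 were higher and Hif1an lower, where 29.4% of all genes were called. Epas1 differed by 0.55 (0.37 to 0.74) and Egln3 by 1.03 (0.81 to 1.26) on the log2 scale. Hif1an had 33.1 CPM (25.4–42.4) in WT and 19.1 CPM (15.6–23.3) in HIF-1a KO, or -0.79 (-1.26 to -0.31). Hif1a differed in this class by 0.03 (-0.11 to 0.17). Whether Hif1an and Hif1a are called in this class depends on the scaling, as described at the end.

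In the goblet-like class 2 of 8 members were called, where 25.5% of all genes were, namely Epas1 with 0.55 (0.26 to 0.85) and Egln3 with 1.09 (0.57 to 1.64). By goblet cluster, Epas1 was called in cluster 4, with 1.05 (0.54 to 1.60), and not in cluster 9, with 0.27 (-0.14 to 0.70), or cluster 12, with 0.33 (-0.35 to 1.06), while Egln3 was called in cluster 9, with 1.83 (1.06 to 2.71), and not in cluster 4, with 0.38 (-0.46 to 1.29). In the Gsdmc class Epas1 and Egln3 were called among 9 members, with 0.59 (0.32 to 0.86) and 0.61 (0.25 to 0.99), where 25.2% of all genes were called. There Epas1 was called in both clusters, and Egln3 in cluster 7, with 0.87 (0.36 to 1.41), but not in cluster 3, with 0.27 (-0.27 to 0.83). The shares of all genes called in single clusters are not given here, so calls by cluster describe these genes only. In the crypt base stem-like class 2 of 4 members were called beside 18.1% of all genes, Epas1 with 1.04 (0.35 to 1.78) and Arnt, at 73.3 CPM (53.3–98.4) and 141 CPM (118–167), with 0.94 (0.44 to 1.47). Epas1 alone was called in the Cftr and Htr4 crypt enterocyte-like class, 1 of 7 members beside 17.0% of all genes, with 0.76 (0.26 to 1.30), and in the cycling crypt-like class, 1 of 8 members beside 21.0%, with 0.67 (0.25 to 1.10).

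No member was called in the other classes. This held for 4 members in enteroendocrine-like nuclei, where 9.43% of all genes were called, 3 in fibroblast-like nuclei (8.79%), 4 in smooth muscle-like nuclei (11.8%) and 2 each in immune-like (12.6%), blood endothelial-like (8.15%) and lymphatic endothelial-like nuclei (8.89%). In enteric neuron-like nuclei no member had 50 UMIs. Epas1 was therefore called in 6 epithelial classes, and in the other classes where it was compared its ratio was 0.07 (-0.39 to 0.53) in fibroblast-like, 0.38 (-0.15 to 0.90) in blood endothelial-like and -0.16 (-0.92 to 0.63) in enteroendocrine-like nuclei. The difference between classes was not tested. Outside the classes, Epas1 was called in unnamed cluster 2, with 1.28 (0.71 to 1.87), and not in unnamed cluster 1, with 0.36 (-0.40 to 1.07).

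With scaling by total UMIs, Hif1a was called in none of the 12 classes compared, while its value was higher in HIF-1a KO in 12 of the 13 classes. The median log2 ratio of all genes was -0.08 in the surface absorptive-like class and 0.02 to 0.17 in the other classes. A higher value in most classes was thus not particular to Hif1a. Egln3 went against its overall direction in the cycling crypt-like class, with -0.46 (-1.03 to 0.10), where it was not called, and in the crypt base stem-like class, with -0.49 (-1.35 to 0.39), where it had fewer than 50 UMIs.

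Transcripts of surface cells were found in other classes too, with higher sums in HIF-1a KO. The 8 surface absorptive markers summed to between 252 and 1110 CPM in the other 12 classes in WT and to between 468 and 1587 CPM in HIF-1a KO, higher in HIF-1a KO in 12 of 12, by a factor of 1.21 to 1.91. Aqp8 and Guca2a were at 0 in WT enteric neuron-like nuclei. In goblet-like nuclei the sums were 607 and 900 CPM, and in surface absorptive-like nuclei themselves 5634 and 7660 CPM. The part of this in the ratios of Egln3 and Epas1 was not tested.

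**Figure D5:**
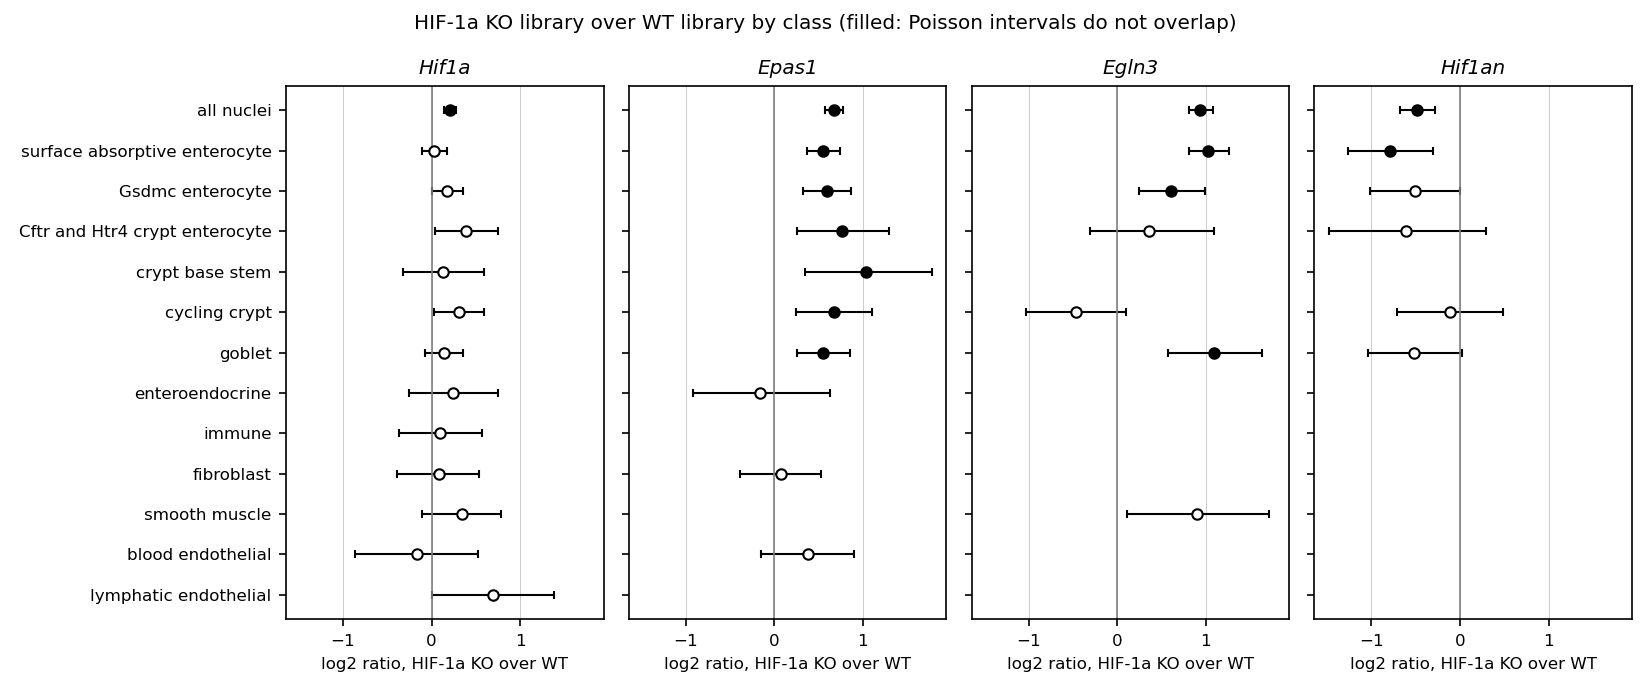
The log2 ratio of the HIF-1a KO over the WT library (x axis) for members over all nuclei and by class (y axis), with bars for exact conditional 95% intervals and filled points where the Poisson intervals of the libraries do not overlap. With scaling by total UMIs, Epas1 is called in 6 epithelial classes, and Hif1a over all nuclei at 0.21 and in no class.

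A gene that overlaps with Hif1a on the opposite strand was also counted. Gm15283, annotated as antisense on chromosome 12 (73843039–73949814, minus strand), spans the whole of Hif1a, and it was singled out after its values were seen. It had 32.7 CPM (29.7–35.9) in WT and 107 CPM (103–111) in HIF-1a KO, from 433 and 2526 UMIs, a log2 ratio of 1.71 (1.56 to 1.86), which is rank 303 of 14393 genes from the highest. Its value was higher in HIF-1a KO in 13 of 13 classes, and it was called in all 6 of those with enough UMIs. In these 6 classes 17.0% to 29.4% of all genes were called. In surface absorptive-like nuclei Gm15283 was at 64.6 CPM (53.6–77.2) in WT and 164 CPM (153–175) in HIF-1a KO, and in crypt base stem-like nuclei at 23.3 CPM (12.8–39.1) in WT and 53.7 CPM (40.0–70.6) in HIF-1a KO. Of the other counted genes within 500 kb of Hif1a, 5 had enough UMIs, of which 3 were lower in HIF-1a KO and 0 were higher. Of all genes compared over all nuclei, 26.0% were lower and 26.9% higher. The strand setting of the counting is not given in the sources used here, so reads of Hif1a and Gm15283 may not be told apart. Of the other members, Arnt2 overlaps with an antisense gene of 2 UMIs in each library and the end of Egln2 meets Cyp2t4, with 0 and 5 UMIs.

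The other genes of the pathway were described from 5 lists. Of 30 genes known to be induced by HIF in hypoxia, 29 could be compared over all nuclei, and 12 were higher and 9 lower in HIF-1a KO, with a median log2 ratio of 0.15. Of all genes compared over all nuclei, 26.9% were higher and 26.0% lower, with a median of -0.01, and the counts of the lists that follow stand beside the same shares. As for the members, these ratios of list genes mix levels within classes with the makeup of the libraries. The largest ratios were those of Rora, a nuclear receptor, with 201 and 51.4 CPM or -1.97 (-2.07 to -1.87), of the matrix enzyme gene Loxl2 with -1.73 (-2.25 to -1.22), and of Ankrd37 with 1.57 (1.00 to 2.19). The list thus had no single direction. Among its higher genes were Mxi1, a MYC antagonist, with 0.99 (0.88 to 1.11), the hexokinase gene Hk2 with 0.66 (0.58 to 0.74) and Ldha, which makes lactate, with 0.44 (0.32 to 0.56). The carbonic anhydrase gene Car9 was lower with -0.39 (-0.61 to -0.16). These last 4 genes were singled out after their values were seen.

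By class these targets often shared a place with Hif1a and Egln3. Of the 15 targets with the same highest class in both libraries, 12 (80.0%) were highest in surface absorptive-like nuclei, beside 17.8% of the 5296 genes of the whole table with the same highest class in both. The 12 included the glucose transporter gene Slc2a1, with 91.8 and 107 CPM, Bnip3 with 38.4 and 35.8 CPM, Hk2 with 305 and 406 CPM and Ldha with 107 and 148 CPM. Vegfa, which draws blood vessels, was highest in fibroblast-like nuclei with 119 and 123 CPM. Slc2a1, Bnip3 and Vegfa were also singled out after their values were seen. The collagen enzyme gene Plod2 had the largest contrast of the list, with 159 and 136 CPM in fibroblast-like nuclei and a log2 ratio over all other nuclei of 2.94 and 4.18.

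Of 10 genes of iron handling linked to HIF-2, all were compared over all nuclei, and 5 were higher and 1 lower in HIF-1a KO, beside the 53.0% of all genes that were called. The ferritin genes Fth1 and Ftl1 differed by 1.33 (1.20 to 1.46) and 0.47 (0.36 to 0.58), and Slc40a1, the iron exporter ferroportin, by 0.78 (0.68 to 0.88). These 3 genes were highest in surface absorptive-like nuclei in both libraries, with 140 and 299 CPM for Fth1 and 232 and 337 CPM for Slc40a1. The transferrin receptor gene Tfrc, named because it was the lower one, had -0.45 (-0.54 to -0.37) and was highest in the Cftr and Htr4 crypt enterocyte-like class, with 265 and 166 CPM. Within surface absorptive-like nuclei 7 of the 10 genes were compared, with 2 higher and 2 lower, beside 29.4% of all genes called. Within the Gsdmc class 7 were compared, with 3 higher and 1 lower, beside 25.2%.

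Of 14 genes of the VHL ligase and of HIF stability, 2 were higher and 4 lower, beside 53.0% of all genes called in either direction. The largest ratios were those of the neddylation enzyme gene Ube2m at -0.98 (-1.17 to -0.79), the chaperone gene Hsp90ab1 at -0.80 (-0.89 to -0.71) and Siah2, a ligase that targets Egln proteins, at 0.79 (0.50 to 1.08). Usp20, which removes ubiquitin, had its highest class in enteric neuron-like nuclei with 66.4 and 50.9 CPM. Of 11 coactivators and their competitors, 9 were compared and 6 were higher and 1 lower, beside 26.9% and 26.0% of all genes. Cdk8 differed by -0.89 (-0.93 to -0.85), the competitor Cited2 by 0.86 (0.54 to 1.18) and the coactivator Ep300 by 0.29 (0.22 to 0.36), and Cited2 was highest in surface absorptive-like nuclei with 18.1 and 29.9 CPM. Of 8 other partners of Arnt proteins and their feedback genes, 4 were compared, and Npas4 with -1.55 (-2.24 to -0.88), Npas3 with -0.39 (-0.57 to -0.22) and Tiparp with 0.42 (0.25 to 0.59) were called. Npas3 was highest in lymphatic endothelial-like nuclei, with 211 and 143 CPM. Both directions occurred in each of the 5 lists.

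The genes whose pattern over classes was most like that of a member were found by Pearson's r of log2(CPM + 10) over the 10 classes with at least 50 nuclei in each library, centred within a library, among 7875 genes. The 20 points share libraries and depth, so r is a description. For Hif1a these included Ggh (0.91), Junb (0.91), Trim12a (0.90) and Actr3 (0.90), and for Epas1 Gm16685 (0.88), Rdh10 (0.83), Spry2 (0.82), Slc23a2 (0.82) and Il34 (0.82). For Hif3a they were Spdef (0.92), Galnt5 (0.91), Bace2 (0.90), Best2 (0.90) and Rapgef3 (0.88), and for Egln3 Anxa1 (0.90), 4732465J04Rik (0.88), Tlr4 (0.88), Akap13 (0.86) and Plac8 (0.86). Spdef and Plac8 are markers that named classes. Between members, r was 0.73 for Hif1a and Egln3 and -0.39 for Hif1a and Hif3a. With all 13 classes, a choice made after the data were seen, these were 0.77 and -0.10. Over the same 13 classes Junb was again among the 5 for Hif1a, and Anxa1 and Plac8 were among those for Egln3, while the 5 for Epas1 and for Hif3a were all different.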

How the data were processed

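Nuclei of snap-frozen colon were profiled with the 10x Genomics 3′ v3.1 kit. Per the labels, the authors ran Cell Ranger 7.0.1 on mm10 and deposited UMI counts per gene and nucleus. Whether intronic reads were counted is not given in the sources used here. Nuclei with 400 to 5000 genes and at most 10% mitochondrial UMIs were kept, out of 4896 and 4772 barcodes, and scrublet marked 0 and 1 nuclei as doublets, too few to have worked, so that none was removed. Seurat 5.3.0 (R 4.3.3) integrated the libraries by canonical correlation anchors, with 2000 variable features, 30 principal components and a resolution of 1. Marker log2 ratios of a cluster over other nuclei were averaged by class, and the top class was taken, or one with more markers, and at least 3, among the 10 leading genes. The name was kept where at least 3 markers had a log2 ratio of 1 and 10% detection, no other class had more markers among the leading genes, and 1 marker was among them or the mean was at least 2. The thresholds were chosen with the data in view. Clusters 1, 2, 22 and 23 stayed unnamed. Of these, cluster 23 was closest to mesothelial cells, with 4 markers found but more fibroblast markers among its leading genes, and cluster 22 to fibroblasts, with 4 found and 0 among them. No cluster was named for pericytes, interstitial cells of Cajal or tuft cells.

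UMIs were summed per class and library in Python 3.11.15 (numpy 2.4.6, pandas 2.3.3, scipy 1.17.1). The rule for calls was checked on simulated counts, where 193 of 200 genes changed by 3-fold were called over all nuclei, with 82 calls among 14145 unchanged genes, which covers counting error only and no difference between pools of animals. A 3-fold change is larger than that of any member over all nuclei, and the recovery of smaller changes was not checked. TMM factors came from edgeR 4.0.16 and size factors from DESeq2 1.42.0. Gene positions are from GENCODE M21. Named were all members, the 5 genes most like Hif1a, Epas1, Hif3a and Egln3 (1 of those for Hif1a is not reported here), up to 3 called genes of each list with the largest ratios, and of each list the gene with the largest contrast between classes. The members and lists were chosen with earlier results of these data known.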

Additional observations from a re-analysis of the deposited data

How the results depend on the processing

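Over all nuclei, the direction of the 5 called members was the same in each setting tried, with log2 ratios from 0.48 to 0.97 for Egln3, 0.53 to 0.70 for Epas1, 0.15 to 0.24 for Hif1a, 0.17 to 0.53 for Egln1 and -0.51 to -0.34 for Hif1an. The number of members called fell from 5 to 3 with nuclei thinned to 1000 UMIs, where Hif1a (0.18) and Hif1an (-0.34) were not called. Egln1 was also not called with all deposited barcodes (0.20). The pairs of a member and a class called were 11, and 7 without integration and 2 after thinning, which were Epas1 (0.76) and Egln3 (1.13) in surface absorptive-like nuclei. Thinning leaves fewer UMIs and left out 0 WT and 63 HIF-1a KO nuclei. The shares of all genes called after thinning and without integration are not given here. The lower counts are therefore not a result about the members. The cause of the change without integration was not tested. Of all genes over all nuclei, 53.0% were called, 34.2% with a minimum of 1 UMI and 30.2% with a log2 ratio of at least 0.5 in size. TMM factors and DESeq2 size factors moved the log2 ratios by 0.16 and 0.17 in surface absorptive-like, -0.11 and -0.17 in blood endothelial-like, -0.16 and -0.14 in lymphatic endothelial-like and -0.12 and -0.11 in fibroblast-like nuclei, and by at most 0.1 in the other classes. The calls by class given above use total UMIs without these factors. In surface absorptive-like nuclei, the interval ends of Hif1an (called lower) and of Hif1a (not called) lay close enough for such shifts to change the outcome. No paired analysis was possible because each genotype has 1 pooled library, so that no library could be left out either. The depth limits Vhl, Egln2 and Arnt2, which had few UMIs in most classes.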
